A study of Mus musculus with 8 samples.

Results

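The sites described here are 649 PU.1 ChIP-seq sites that were called in 4 of 7 libraries of one time course and in none of the other 3. They were chosen by merging the peak summits of all 7 lists wherever neighbouring summits lay at most 100 bp apart, which gave 246675 merged sites. The rule kept those called in exactly the libraries of Day 0, Day 8, Day 12 and the one titled knockdown Day 12- 8. The kept sites made up 0.263% of all merged sites. Chromatin immunoprecipitation was done in AML246, mouse acute myeloid leukaemia cells grown with IL-3, and viable cells were sorted before it. Doxycycline (Dox, 0.1 ug/mL) was given from day 0 and removed at day 12. The titles call the time on Dox restoration and the time after it knockdown. The device by which Dox changes PU.1 in these cells is not given in the sources used here.

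The 4 libraries that call the sites were Day 0 (untreated), Day 8 and Day 12 of Dox, and the one titled Day 12- 8, whose treatment label reads 4 days off Dox. The 3 that do not were Day 4 of Dox, the one titled Day 12- 4, whose labels give 12 days of Dox and a gate on Cd11b-high cells, and the one titled Day 12- 12, whose label reads 8 days off Dox. The other 6 libraries came from total viable cells. Titles and treatment labels disagree for the last 3 libraries, so each is called by its title. Each title had 1 library, so differences had no replicate check and are described without p-values. The lists that call the sites held 8043, 33962, 86271 and 21377 summits at Day 0, Day 8, Day 12 and Day 12- 8. The lists that do not held 57424, 9868 and 148415 at Day 4, Day 12- 4 and Day 12- 12. Sequencing depth was unknown. A missing call therefore does not show that PU.1 was absent, and a score does not measure occupancy across lists.

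PU.1, encoded by Spi1, is an ETS-family transcription factor of myeloid and B-lymphoid cells. It favours purine-rich DNA built on a GGAA core, whereas several broadly expressed ETS factors favour a core preceded by 2 cytosines. Promoters of widely expressed genes are often rich in G, C and CpG dinucleotides and hold GC boxes, which Sp and KLF factors recognise. The genes near a site are therefore given by family and role, with the letters at their starts.

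The stretches below show some of the highest-placed of the 649 sites at gene starts, beside highest-placed sites called in all 7 libraries. Each is 101 bases from RefSeq (GRCm38.p6, the coordinates of mm10), read in the direction of the gene and ending before a RefSeq start of it. A gene can have several starts, and the one used is the start whose window holds the site. The stretches at Tent4b, Tmem214 and Dusp5 lie outside the gene as its outermost ends are given, those at Cpne2, Trim39, Lrrc8d and Prr14l inside it, and that at Wdr43 in part. Capitals mark the letters GAGGAAGT (PU.1-type), CCGGAA (general ETS-type core) or GGGCGG (GC box) on either strand. The first 5 are the sites with the highest lowest rank over the 4 lists among those that could be shown, and the last 3 were chosen in the same way among sites of all 7 libraries.
Tent4b, chr8:88199056-88199156, plus strand: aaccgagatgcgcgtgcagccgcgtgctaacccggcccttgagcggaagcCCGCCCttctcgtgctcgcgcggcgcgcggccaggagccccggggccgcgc
Tmem214, chr5:30869478-30869578, plus strand: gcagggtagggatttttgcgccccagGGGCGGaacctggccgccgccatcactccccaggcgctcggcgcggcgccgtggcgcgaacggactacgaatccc
Cpne2, chr8:94532927-94533027, plus strand: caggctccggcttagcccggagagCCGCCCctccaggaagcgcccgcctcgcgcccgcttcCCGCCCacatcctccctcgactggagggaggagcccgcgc
Trim39, chr17:36271434-36271534, minus strand: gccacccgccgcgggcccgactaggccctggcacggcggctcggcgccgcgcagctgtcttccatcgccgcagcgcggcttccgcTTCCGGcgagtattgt
Lrrc8d, chr5:105700632-105700732, plus strand: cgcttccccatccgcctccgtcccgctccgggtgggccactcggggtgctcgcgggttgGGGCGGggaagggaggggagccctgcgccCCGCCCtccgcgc
Prr14l (all 7 libraries), chr5:32854231-32854331, minus strand: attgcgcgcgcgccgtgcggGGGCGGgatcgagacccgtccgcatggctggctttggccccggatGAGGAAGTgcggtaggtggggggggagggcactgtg
Dusp5 (all 7 libraries), chr19:53528919-53529019, plus strand: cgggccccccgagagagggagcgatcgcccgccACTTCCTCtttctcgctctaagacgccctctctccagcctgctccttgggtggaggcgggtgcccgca
Wdr43 (all 7 libraries), chr17:71616114-71616214, plus strand: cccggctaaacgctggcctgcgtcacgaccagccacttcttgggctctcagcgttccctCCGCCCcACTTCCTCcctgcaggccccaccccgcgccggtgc
The stretches at Tent4b, Tmem214, Cpne2 and Lrrc8d held GC boxes and no PU.1-type letters, and that at Trim39 held 1 general ETS-type core. Those at Prr14l, Dusp5 and Wdr43 each held 1 PU.1-type match. The stretches were chosen by rank and are not typical. PU.1-type letters were in 13.9% of 252 stretches of this length at sites of all 7 libraries.

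Across all start windows that hold a site, the letters could be counted. The middle of a site fell inside a 300-base RefSeq start window (250 bases before a start to 50 after it) in 182 windows for the 649 sites, 392 for sites of all 7 libraries and 136 for sites called at Day 0 and Day 12- 8 alone. The PU.1-type letters GAGGAAGT, searched on both strands, were in 2 of the 182 windows, or 1.10% (exact 95% interval 0.133 to 3.91). They were in 75 of 392 windows of sites of all 7 libraries, or 19.1% (15.4 to 23.4), and in 0 of 136 windows of sites of Day 0 and Day 12- 8 alone, an interval that reaches 2.68%. Among the windows of all 17492 genes in the table, 3.17% held them, and among the 7058 windows with any merged site, 4.69% (4.21 to 5.21). The interval for the 649 sites included the share of all genes and lay below those of all merged sites and of the sites called in all 7 libraries. The windows with the letters, named after their values were seen, were those of Gpsm1 and Timm8a1.

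Within 50 bases of the middle of a site the letters were in 0 of 107 stretches for the 649 sites, an interval that reaches 3.39%, and in 35 of 252 for sites of all 7 libraries, or 13.9% (9.87 to 18.8). The share was 3.45% around all merged sites and 0.829% in a fixed stretch of that length in all genes' windows, so 0 of 107 does not set the 649 sites apart from all genes. The shorter PU.1-type core GAGGAA was in 26.9% (20.6 to 34.0) of the 182 windows, in 49.7% (44.7 to 54.8) of those of all 7 libraries, in 29.8% of those of all merged sites and in 27.5% of all genes' windows. GAGGAA is part of GAGGAAGT, so these counts overlap.

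General ETS-type letters were more frequent at the 649 sites than over all genes, but not beyond the share of all merged sites, which lay inside their intervals. CCGGAAGT was in 20 of 182 windows, or 11.0% (6.84 to 16.5), against 9.05% of all merged sites' windows, 5.29% of all genes' windows and 13.8% (10.5 to 17.6) of windows of all 7 libraries. Its core CCGGAA was in 35.2% (28.2 to 42.6), against 29.7% of all merged sites' windows, 19.1% of all genes' windows and 43.6% (38.7 to 48.7) for all 7 libraries. Windows of sites of Day 0 and Day 12- 8 alone held CCGGAAGT in 1.47% (0.179 to 5.21) of cases, below the interval of the 649 sites. The GC box GGGCGG was in 87.4% (81.6 to 91.8) of the 182 windows, against 67.1% of all merged sites' windows, 46.3% of all genes' windows and 82.4% (78.3 to 86.0) for all 7 libraries. CCAAT boxes were in 19.8% (14.3 to 26.3), against 37.4% of all merged sites' windows and 39.0% of all genes' windows. For all 7 libraries the CCAAT share was 32.9% (28.3 to 37.8). Windows of sites of Day 0 and Day 12- 8 alone had nearly the same shares as the 649 sites for both. They held GC boxes in 88.2% (81.6 to 93.1) and CCAAT boxes in 20.6% (14.1 to 28.4) of cases. E-box (CACGTG), CRE (TGACGTCA) and YY1-type (AAGATGGC) letters were in 9.89, 2.75 and 3.85% of the 182 windows, against 10.1, 3.54 and 4.49% of all merged sites' windows and 7.90, 2.34 and 3.22% of all genes' windows.

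**Figure D1:**
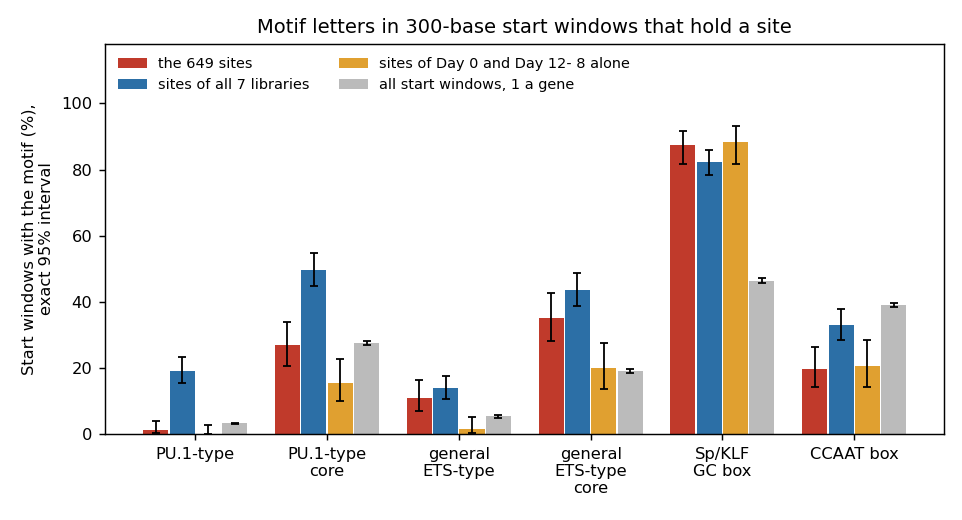
Share of 300-base RefSeq start windows (%, vertical axis) that hold each motif on either strand, for windows with one of the 649 sites (n = 182), with a site of all 7 libraries (n = 392), with a site of Day 0 and Day 12- 8 alone (n = 136), and for 1 window of each gene (n = 17492). Bars are shares and lines exact 95% intervals. PU.1-type letters are at 1.10% for the 649 sites and 19.1% for sites of all 7 libraries.

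The windows of the 649 sites were rich in G and C. Their GC content averaged 70.6 ± 5.97% (SD over 182 windows) and ranged between 55.3 and 83.3%. The mean was 66.1 ± 5.73% at sites of all 7 libraries (392 windows), 71.9 ± 4.69% at sites of Day 0 and Day 12- 8 alone (136 windows), 62.4 ± 8.12% at all merged sites (7058 windows) and 55.9 ± 11.7% over all genes (17492 windows). CpG dinucleotides numbered 33.9 ± 9.04 per window at the 649 sites and 15.3 ± 12.8 over all genes. GC content was at least 60% in 172 of the 182 windows. Motif letters depend on base composition, so the shares were also taken over windows of at least 60% GC. PU.1-type letters were then in 1.16% (0.141 to 4.14) of 172 windows at the 649 sites. They were in 18.4% (14.5 to 22.9) of 342 at sites of all 7 libraries. The share was 3.13% of 4281 at all merged sites and 2.18% of 6754 over all genes. At this GC content the interval of the 649 sites included both of those shares, and it lay below that of sites of all 7 libraries. General ETS-type letters CCGGAAGT were in 10.5% (6.32 to 16.03) at the 649 sites, 8.97% at all merged sites and 7.30% (6.69 to 7.95) over all genes of such GC content. GC boxes were in 88.4% (82.6 to 92.8) at the 649 sites, 83.3% at all merged sites and 82.6% (81.7 to 83.5) over all genes of such GC content. For CCGGAAGT and GC boxes these intervals overlapped. CCAAT boxes were in 19.8% (14.1 to 26.5) at the 649 sites. That interval lay below the 33.8% at all merged sites and the 33.5% (32.4 to 34.7) over all genes. Sites of all 7 libraries held CCAAT boxes in 31.6% (26.7 to 36.8) of cases. For sites of Day 0 and Day 12- 8 alone the share was 20.1% (13.7 to 27.9).

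Most of the sites lay at gene ends, as their working name says. A gene end was within 1 kb of the middle of 506 of the 649 sites, or 78.0% (74.6 to 81.1), against 13.1% (13.0 to 13.3) of all other merged sites. Of all merged sites, 13.3% were so placed. Within the Day 0 list the share was 78.1% of the 649 sites' own summits and 59.7% (58.5 to 60.8) of the other summits, and within the Day 12 list 78.1% and 17.3% (17.0 to 17.5). The share was 74.9% (72.0 to 77.6) among the 936 sites of all 7 libraries, an interval that overlaps that of the 649 sites. It was 60.8% (58.0 to 63.6) among the 1222 sites of Day 0 and Day 12- 8 alone. Gene ends here are both ends of each of 21887 protein-coding genes. Sites share libraries and loci, so the intervals cover counting error only.

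The ends were mostly starts. Of the 566 genes with a site within 1 kb of an end, 451 had it by the 5′ end and 22 by the 3′ end, and for 93 the start table gave no strand. A RefSeq start was within 1 kb of 72.1% (68.5 to 75.5) of the 649 sites and within 0.25 kb of 52.4% (48.5 to 56.3). Over all merged sites these shares were 9.04 and 5.08%. Within 1 kb the share was 68.2% (65.1 to 71.1) for sites of all 7 libraries, an interval that overlaps that of the 649 sites. For sites of Day 0 and Day 12- 8 alone it was 52.0% (49.1 to 54.8). Sites of all 7 libraries had a start within 0.25 kb in 57.3% (54.0 to 60.5) of cases, and sites of Day 0 and Day 12- 8 alone in 29.9% (27.3 to 32.5). The 2 genes with more than 1 of the sites were Kdm7a, which encodes a histone demethylase, and the predicted gene Gm52799. Only 1 gene had an end within 1 kb of 446 sites, and 35 sites lay by the starts of genes on both strands. The counts by 5′ end, 3′ end and strand were not set beside those of other sites.

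**Figure D2:**
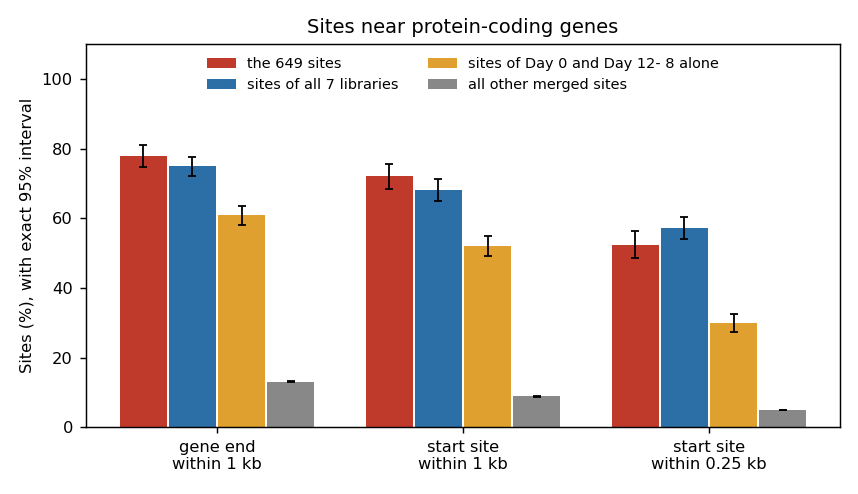
Share of sites (%, vertical axis) with an end or a RefSeq start of a protein-coding gene within the distance named on the horizontal axis, for the 649 sites, sites of all 7 libraries (936), sites of Day 0 and Day 12- 8 alone (1222) and all other merged sites. Lines are exact 95% intervals. The 649 sites stand at 78.0% for gene ends within 1 kb, against 13.1% of all other merged sites.

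Around starts the sites had nearly the median position of merged sites in general. Among the 468 sites with a start within 1 kb, the middle lay a median of 66 bp to the inner side of the start, with quartiles of 20.3 bp outside and 224 bp inside. It was on the inner side for 323 of them, or 69.0%. All other merged sites with such a start had a median of 64 bp inside, with quartiles of 80 bp outside and 325 bp inside, and 61.9% on the inner side. Sites of all 7 libraries centred on the start itself, with a median of 2.5 bp inside and 50.9% on the inner side. Sites of Day 0 and Day 12- 8 alone lay farther in, at a median of 193 bp, with 83.3% on the inner side. Taken list by list, the summits lay a median of 94 bp inside in Day 0, 56 in Day 8, 34 in Day 12 and 76 in Day 12- 8.

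**Figure D3:**
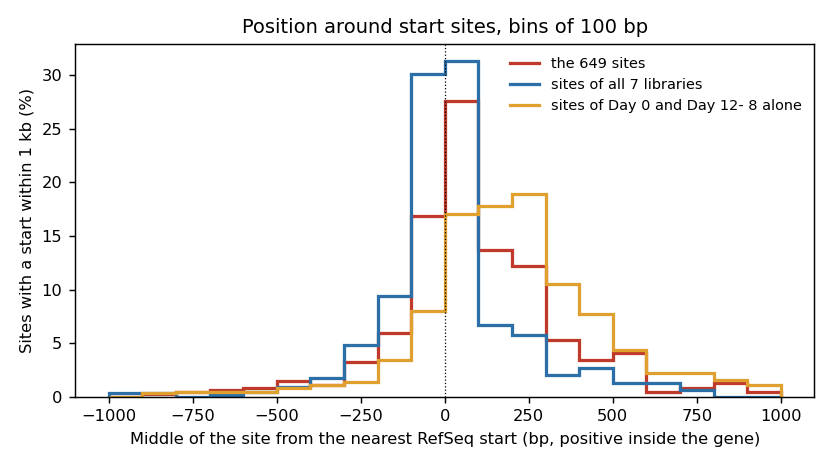
Distance from the nearest RefSeq start to the middle of a site (horizontal axis, bp, positive inside the gene) against the share of sites in each bin of 100 bp (vertical axis, % of sites with a start within 1 kb). Sites of all 7 libraries (638) peak at the start, the 649 sites (468 with such a start) have a median of 66 bp inside, against 64 bp for all other merged sites, which are not drawn, and sites of Day 0 and Day 12- 8 alone (635) one of 193 bp.

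Of the remaining 143 sites, 103 lay inside genes and 23 outside them, each over 1 kb from any gene end. Another 17 lay on 6 unplaced scaffolds, where genes were not looked up. Scaffold sites were 2.62% (1.53 to 4.16) of the 649 sites and 0.179% of all merged sites. They were 1.23% (0.689 to 2.02) of sites of Day 0 and Day 12- 8 alone, an interval that overlaps that of the 649 sites. Among sites of all 7 libraries the share was 0.321% (0.0661 to 0.934).

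The scores that made the sites members are described here without a test. Each is the −log10 q-value that the authors' peak caller gave in its own list, so scores of different lists are not on a common footing. At Day 0 the sites scored a median of 11.7, between 1.99 and 59.4. The Day 8 scores had a median of 24.2, between 1.83 and 135, and the Day 12 scores one of 42.5, between 2.05 and 179. The library titled Day 12- 8 gave a median of 11.0, between 2.26 and 88.0. Day 12 held the highest of the 4 scores at 501 sites and Day 0 at 24. A score of at least 10 in all 4 lists was reached by 232 sites and one of at least 20 by 16. A typical site ranked above 62.9% of the Day 0 list, 66.4% of the Day 8 list, 85.0% of the Day 12 list and 73.9% of the Day 12- 8 list. The 936 sites of all 7 libraries scored higher in each of those 4 lists, with medians of 33.7, 145, 299.7 and 62.1. Sites of Day 0 and Day 12- 8 alone had medians of 8.63 and 5.92 in those lists.

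**Figure D4:**
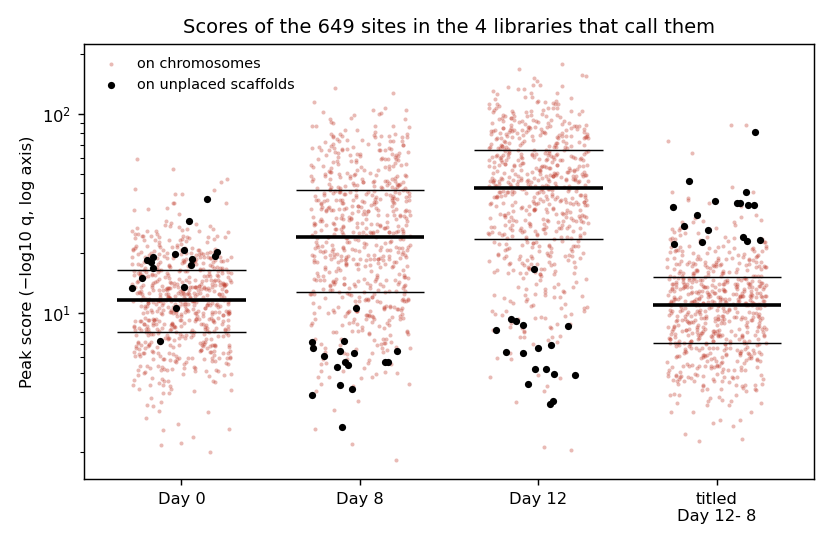
Peak score (−log10 q-value, log axis) of each of the 649 sites in the 4 libraries that call them, in the order Day 0, Day 8, Day 12 and the library titled Day 12- 8. Thick lines are medians (11.7, 24.2, 42.5 and 11.0), thin lines quartiles, and black points the 17 sites on unplaced scaffolds, which are low at Day 8 and Day 12 and lie at 22.2 or more in the library titled Day 12- 8.

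The scaffold sites were ordered differently from the rest. Their median scores were 18.4 (Day 0), 5.69 (Day 8), 6.36 (Day 12) and 34.1 (Day 12- 8). None of the 17 scored higher at Day 12 than at Day 0, whereas 586 of the 632 sites on chromosomes did. By position, sites with a gene end within 1 kb had Day 12 medians of 44.1 and sites inside genes over 1 kb from an end 41.1, against 6.36 on the scaffolds. Over all 649 sites, within-list ranks went together most at Day 8 and Day 12 (Spearman 0.761, a description over sites that share libraries) and least at Day 12 and Day 0 (0.267). Summits at Day 12 and Day 8 lay a median of 20 bp apart, and those at Day 12 and Day 0 a median of 48 bp.

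Among all sites called in exactly 4 libraries (8285), this set of libraries was second in number after Day 4, Day 8, Day 12 and Day 12- 12, which had 5938. Of the 2228 sites called in the 4 libraries whatever the others did, 936 were called in all 7, 356 in Day 12- 12 besides and 649 in no other. A call at Day 4 alone was added at 5 sites and one in Day 12- 4 alone at 6. The rule itself keeps summits of the 3 lists with no call over 100 bp away, so their scarcity close to the sites is partly fixed by it. A Day 4 summit lay within 500 bp of 19 of the 649 sites (2.93%), a Day 12- 4 summit of 0 and a Day 12- 12 summit of 29 (4.47%). A summit of any of the 3 lay within 1 kb of 149 sites (23.0%) and within 2 kb of 244 (37.6%). The median distances to the nearest summit of Day 4, Day 12- 4 and Day 12- 12 were 7024, 42063 and 6691 bp. These distances depend on list length, and the Day 12- 4 list was the shortest of the 3, with 9868 summits. Other sites were not compared in this way. Close to the linkage limit, 3 sites had such a summit between 110 and 147 bp away, and the nearest of these was by Setd5. On the other side of the limit, 5 sites of the 4 libraries were joined to a Day 12- 12 summit by a gap of 87 to 100 bp. By their ends, 127, 29 and 222 of the 566 genes had a summit of Day 4, Day 12- 4 and Day 12- 12 within 1 kb, at another position. The same shares over all genes were not taken, and they depend on list length. These counts therefore do not set the 566 genes apart from other genes.

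The highest-placed sites were ordered by the lowest of their 4 within-list ranks. Of the first 15, 11 had a gene end within 1 kb. The first lay 261 bp from an end of E130309D02Rik (chromosome 5, 143315114 to 143315139) and scored 45.4 at Day 0, 98.6 at Day 8, 138 at Day 12 and 42.8 in Day 12- 8. The next, at Snx9, a sorting nexin of endocytosis (chromosome 17, 5841342 to 5841445), scored 33.6, 105, 91.1 and 26.6 in the same order. A site 11 bp from the nearest of the ends of Cers2, which makes very long chain ceramides, Anxa9 and LOC115489748 (chromosome 3, 95315166 to 95315216) scored 35.6, 107, 113 and 22.8.

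Rps10, a protein of the small ribosomal subunit, had a site 47 bp inside its start (chromosome 17, 27635151 to 27635244) with scores of 27.996, 95.04, 107 and 29.4. The site 107 bp before the start of Tent4b, a noncanonical poly(A) polymerase (chromosome 8, 88199099 to 88199113), is the one whose bases are printed first, and scored 27.3, 90.2, 81.5 and 22.6. Josd1, a deubiquitinase, had a site 277 bp inside its start that scored 24.9, 100.5, 112 and 20.4. At Rnf216, a ubiquitin ligase, the scores were 23.2, 70.1, 130.2 and 28.8. Sites at Taf6l with Tmem179b, Pdzd8 and Tmem214 were also among the 11. In all 11 the Day 8 and Day 12 scores were above the other 2.

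The 4 of these 15 with no gene end within 1 kb had as nearest genes LOC102634078, Klhl35, Nfib and Garem2. The site near Nfib, a nuclear factor I gene (chromosome 4, 82513286 to 82513302), lay 6543 bp from an end of that gene and scored 25.5, 127, 128 and 17.4. The highest Day 12 score of all 649, 179, belonged to a site at the start of Hace1, a ubiquitin ligase (chromosome 10, 45577840 to 45577953), which scored 16.9 at Day 0, 115 at Day 8 and 21.4 in Day 12- 8. The highest Day 0 score, 59.4, was at a site of chromosome 3 (5860649 to 5860690) with no gene nearer than Pex2, 282073 bp away. It scored 6.86 at Day 8, 27.2 at Day 12 and 73.4 in Day 12- 8. The highest Day 12- 8 score, 88.0, was inside Cdk8 (chromosome 5, 146261200 to 146261244), with 52.9 for Day 0, 2.20 for Day 8 and 22.3 for Day 12. The sites near Pex2 and inside Cdk8 shared the order of the scaffold sites. The highest Day 8 score, 135, was at a site 84550 bp from Cstad.

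Gene families were counted against all protein-coding genes, of which 566 (2.59%) had one of the 649 sites within 1 kb of an end against 3.84% with a site of all 7 libraries and 3.59% with a site of Day 0 and Day 12- 8 alone. Because every site has a Day 0 summit, 565 of the 566 genes had one within 1 kb, as had 23.5% of all genes. Of the genes with a Day 0 summit, 11.0% had one of the 649 sites. The families were picked with earlier results of these data known and get no test.

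Chromatin regulators, which modify histones or move nucleosomes, had a site in 8 of 83 cases, or 9.64% (4.25 to 18.1). They also made up 20.5% of the 39 such genes with a Day 0 summit. Setd5, a SET domain gene, had a site 768 bp from its end that scored 18.9 at Day 0, 67.5 at Day 8, 104 at Day 12 and 19.1 in Day 12- 8. Kdm1b, a histone H3 demethylase gene, had one that scored 13.4, 66.6, 71.9 and 15.8 in the same order. Kmt2a, the histone methyltransferase gene rearranged in human leukaemias, had one (chromosome 9, 44881556 to 44881603) that scored 14.4, 27.96, 40.4 and 25.3. Kdm7a, Smarcd1, Arid1b, Smarcad1 and Smarcc2 were the others, and the last 4 belong to nucleosome remodelling enzymes. Sites of all 7 libraries were by 9 of the 83 genes.

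Ubiquitin enzymes had a site in 7 of 93 cases, or 7.53% (3.08 to 14.9), and a site of all 7 libraries in 4. Ube2d1, a conjugating enzyme gene, had scores of 17.1, 21.9, 52.4 and 13.8, and Usp46, a deubiquitinase gene, 14.4, 14.2, 18.1 and 7.71. Usp16, Ube2g2, Usp10 and Ube2z were among the others. Mitochondrial import genes had a site in 3 of 26 cases, or 11.5% (2.45 to 30.2), at Timm44, Tomm20 and Timm8a1. That of Timm44, part of the inner membrane import motor, scored 13.0, 29.1, 71.2 and 6.34 and also lay by Ctxn1. The interval of the import genes included 2.59%, and those of the chromatin regulators and ubiquitin enzymes began above it, which for lists picked in this way is a description only. Both families also had a Day 0 summit more often than all genes, at 47.0 and 46.2% against 23.5%.

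In other families the interval included 2.59%. Chaperone genes had a site in 4 of 71 cases, led by Dnajb12, a co-chaperone of the endoplasmic reticulum, which scored 25.8, 77.8, 99.9 and 14.0. The others were Hsp90ab1, Dnajc3 and Dnajc21. Splicing factors had one in 4 of 81, at Lsm11, Hnrnpk, Snrpf and Srsf10. Lsm11 itself belongs to the U7 particle that trims histone messages, and its site, shared with Thg1l, scored 18.6, 27.8, 77.6 and 17.3. Histone genes had one in 3 of 81, at H2aj, H3f3a and H2bc14, Mediator genes in 2 of 30, at Med9 and Med16, and aminoacyl-tRNA synthetases in 2 of 37, at Vars and Ears2. Mitochondrial ribosomal proteins had one in 3 of 78, at Mrps35, Mrpl40 and Mrps6, and translation factors in 2 of 66, at Eef1d and Eif3b.

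Zinc finger genes and solute carriers lay near the share of all genes. Zinc finger genes had a site in 14 of 461 cases, or 3.04% (1.67 to 5.04), with the highest-placed at Zfp771, Zbtb41, Zfp609, Zscan29 and Zfp740. Solute carriers had one in 12 of 337, or 3.56% (1.85 to 6.14). Slc30a1, a zinc exporter, scored 18.3, 76.6, 94.99 and 15.4, and Slc38a2, a neutral amino acid transporter, 11.1, 59.5, 107.7 and 15.5. Slc35a3, Slc7a1 and Slc25a40 were among the first 5 of that family by rank. Rab GTPases, which direct vesicles, had one in 1 of 59, at Rab31.

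In some families sites of all 7 libraries were more numerous than the 649. Cytosolic ribosomal proteins had one of the 649 in 2 of 86 cases, Rps10 among them, and a site of all 7 libraries in 14 (16.3%). Proteasome subunits had 0 of 49 against 7, RNA polymerase subunits 0 of 28 against 5, and cell cycle and replication genes 0 of 80 against 6. The exact intervals of these families with 0 reach 7.25, 12.3 and 4.51%, and each includes the share of all genes. The list of 80 cell cycle and replication genes is not complete. Rrm2 and Wdhd1, replication genes outside it, had one of the 649 sites 104 and 92 bp from an end. Complex I genes had 0 of 38 and other respiratory chain genes 0 of 42, with intervals that reach 9.25 and 8.41%. ETS factor genes, the family of PU.1, had 0 of 25, with an interval that reaches 13.7%. A Day 0 summit lay by 10 of them and a site of all 7 libraries by 3. None of these counts of 0 is set apart from the share of all genes.

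**Figure D5:**
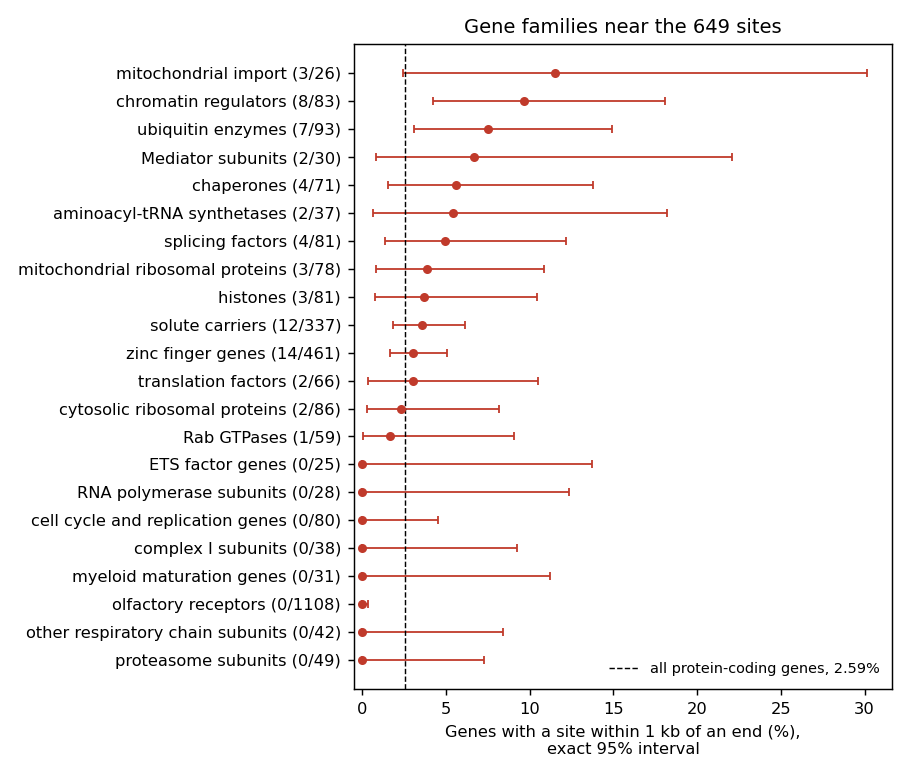
Share of the genes of each of 22 families with one of the 649 sites within 1 kb of an end (horizontal axis, %), with exact 95% intervals as lines. The numbers beside each name are the genes with a site and the genes in the family, and the dashed line is the share of all protein-coding genes, 2.59%. The intervals of chromatin regulators (8/83) and ubiquitin enzymes (7/93) lie right of the line, and that of olfactory receptors (0/1108) left of it.

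Of 31 genes of myeloid maturation, which mark the granulocytes and macrophages PU.1 helps to form, 0 had one of the 649 sites within 1 kb of an end, and the interval reaches 11.2%. A Day 0 summit lay by 3 of them and a site of all 7 libraries by 2. Marker genes of B-lymphoid (5), T-lymphoid (5), erythroid (5) and mast cells (4) had none either, with a Day 0 summit at 1 B-lymphoid and 1 mast cell gene. These lists are too short for 0 to be set apart from the 2.59% of all genes, and they do not hold every gene of these lineages. The site at Timm8a1 also lay within 1 kb of an end of Btk, and another of the 649 lay 554 bp from an end of Ikzf1. Olfactory receptor genes, which are not used in blood cells, had 0 of 1108, with a Day 0 summit by 1.

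Noncoding genes were also near the sites. Within 1 kb lay the ends of 80 lncRNA genes (0.629% of those in the table), 11 miRNA genes (0.896%), 3 tRNA genes (0.735%), 2 snoRNA genes (0.149%), 2 snRNA genes (0.199%) and 6 pseudogenes (0.0603%). Each share was below the 2.59% of protein-coding genes. The miRNA genes were Gm51264, Mir1893, Mir219a-1, Mir219c, Mir5133, Mir5620, Mir6935, Mir7238, Mir7654, Mir7687 and Mir8105. Peak positions do not say whether any of these was expressed.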

How the data were processed

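PU.1 ChIP-seq summit lists of 7 libraries were used; an eighth labelled sample was not analysed here. Per the submitters' processing notes, the authors called peaks with MACS2 on mm10. Each deposited list gives 1 position and 1 score per peak, read as a −log10 q-value because no score lay under 1.30, the value for a q of 0.05. The aligner, the control, filters and pooling are not given in the sources used here. Depth is unknown, so no interval for it could be given.

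Summits were merged by single linkage at 100 bp, placed at the middle of their summits and matched to RefSeq genes and start windows of GRCm38.p6. Start windows existed for 79.9% of protein-coding genes and 83.6% of the 566 genes near the sites, and none lay on chromosome 18. Rank percentiles are within each list. Intervals are exact (Clopper-Pearson, 95%). Named sites were the 15 with the highest lowest rank, the highest in each list, genes with several sites, up to 5 genes per family, and 3 sites with no gene. A few genes that these rules name are not reported here. Sites, families and motifs were chosen with earlier results of these data known. Python 3.11.15, pandas 2.3.3, numpy 2.4.6, scipy 1.17.1 and matplotlib 3.10.9 were used; the merge was tested on simulated data.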

Additional observations from a re-analysis of the deposited data

How the results depend on the processing

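No paired analysis was possible because each title has 1 library. The share of the sites with a gene end within 1 kb stayed between 75.4 and 79.4% under linkage of 50, 200 or 500 bp, score minimums of 2 or 5, lists cut to the shortest, or leaving out the Day 4, Day 12- 4 or Day 12- 12 list. It was 66.1% within 0.5 kb, 83.8% within 2 kb and 81.4% with all genes of the table; without unplaced scaffolds (an alternative chosen after seeing the data) it was 80.1%. The number of sites was 362 with linkage at 50 bp, 993 without the Day 12- 12 list and 290 with each list cut to its 8043 highest scores; in that last case 63 of the 566 genes were kept. Genes near the sites numbered 310 at 50 bp, 861 at 500 bp and 884 without the Day 12- 12 list, and family genes 39 at 50 bp instead of 67. ETS factor genes had 2 at 200 bp. Of the single families, 14 counts moved by over 1.5 times, mostly at 50 bp, where ubiquitin enzymes had 3. Motif shares at GC of at least 60% or over every start window stayed within the 95% intervals of the main windows. Depth, control and replicate error are unknown.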

Other observations

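Genes of a few further groups were found among the 566 and were chosen after their values were seen, so their counts get no test and are set beside the 2.59% of all genes only as a description. Inhibitors of cytokine receptor signalling had sites at Socs1, Socs4, Socs5 and Socs6, 4 of the 8 genes of the SOCS family, and 7 of the 8 had a Day 0 summit. Socs1 scored 5.07 at Day 0, 40.7 at Day 8, 86.5 at Day 12 and 10.8 in Day 12- 8, and Socs4 scored 12.6, 19.2, 43.6 and 13.6. At Socs5 the order turned, with 15.7, 5.87, 8.82 and 4.92. Genes of Polycomb repressive complex 1, which ubiquitinates histone H2A, had sites in 5 of 21 cases, at Ring1, Rnf2, Phc1, Rybp and Scmh1. A Day 0 summit lay by 12 of the 21, against 23.5% of all genes. Ring1 and Rnf2, the catalytic subunits of the complex, scored 25.8, 56.2, 84.8 and 12.2 and 24.2, 50.2, 83.6 and 17.9.

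Genes of transcription factors with high Day 12 scores, also chosen after their values were seen, included Bach1, a heme-responsive repressor, whose site 6 bp from its end scored 20.8 at Day 0, 103 at Day 8, 126 at Day 12 and 15.4 in Day 12- 8. Tfeb, a regulator of lysosome genes, scored 13.5, 59.5, 122 and 18.95, and Yy1 13.2, 79.8, 90.1 and 15.8. Actg1, which encodes a cytoplasmic actin, had the other order, with 17.8, 5.11, 5.87 and 21.8.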
